A study of Mus musculus with 29 samples.

Results

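The genes described here encode the secreted and membrane-bound metalloproteinases that cut extracellular matrix, the MMP and ADAMTS families, together with the ADAMTS-like proteins and the tissue inhibitors of metalloproteinases (TIMPs). They were chosen by symbol and by level: names made of Mmp, Adamts, Adamtsl or Timp and a number, with Mmp12 left out, and a deposited value of 5 or more in at least 4 libraries. Of the 30818 genes in the deposited table, 49 had such a symbol and 43 passed the minimum: 15 Mmp, 19 Adamts, 5 Adamtsl and 4 Timp genes. Mmp1a, Mmp7, Mmp10, Mmp20, Mmp21 and Mmp24 did not. A value of 5 corresponds to 10.7 normalized counts, and each of the 43 still met the minimum when any one group was left out.

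Metalloproteinases are made as inactive zymogens that are opened by other proteases, among them plasmin and furin, and once active they are held in check by TIMPs, which block the zinc in the active site. In fat, remodeling of collagen and proteoglycans accompanies the enlargement and shrinkage of adipocytes, and gelatinases, stromelysins, membrane-type enzymes and aggrecanases of the ADAMTS family all take part. In the mammary gland the same enzymes open matrix for growing and regressing epithelium.

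RNA was sequenced from mammary fat of wild-type C57BL/6N mice after 6 treatments. Control mice received the D12450J diet. All other mice first became obese on a 60% fat diet (D12492), then stayed on it (Obese) or were moved to 1 of 4 weight-loss regimens: LFD, a low-fat diet eaten freely; LFCR, a low-fat diet with 30% calorie restriction; MCR, a Mediterranean-style diet with 30% restriction; and ICR, intermittent calorie restriction. There were 5 libraries per group and 4 for MCR. Every mouse, Control mice included, received E0771 mouse mammary cancer cells in fat pad 4, injected 25 weeks after the first randomization, and the pad sequenced was the opposite one, number 9, so no group is free of a distant tumor. The labels give no sex or age, and although titles begin with "tumor" the tissue is given as normal. The markers fit whole fat pad: over the 6 groups the adipocyte list (Adipoq, Plin1, Cidec, Lipe, Lep) summed to 63279 to 383595 normalized counts per library, and the luminal epithelium list to 16028 to 105383.

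Depth ran from 16403903 to 49026986 recovered reads per library. In 8 libraries (Obese 1 and 5, LFD 1, LFCR 1 and 3, MCR 1, 3 and 4) 9 B cell genes averaged 5.61 to 6.73 on the log2 scale, compared with 10.3 to 12.9 in the remaining 21, that is, few lymph node transcripts were present. None was a Control or ICR library. Results for those of the 43 genes that were called between groups are given with and without these 8, and those for other gene lists together at the end. Leaving them out leaves MCR with 1 library, which is then assumed to vary like the rest. Each library is of pad 9 with its own number in the titles. This reads as 1 mouse per library, although the titles do not say so. A p-value reflects library-to-library spread. Within groups this spread exceeded counting noise, with a chi-square per degree of freedom of at least 22.9 between libraries. In whole tissue, fewer cells of a type and less RNA per cell cannot be told apart.

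Promoter windows of 300 bases, 250 before to 50 after the start (RefSeq, GRCm38.p6), were at hand for 28 of the 43 genes, as 29 windows. Those of 4 genes are printed because these genes carry the patterns described below: Mmp23 and Timp1, both lowest after restricted diets, and Timp3 and Mmp28, both lowest in Control. Capitals mark the GC box, GGGCGG or its reverse complement CCGCCC.
Mmp23 (chr4:155653241-155653540, minus strand): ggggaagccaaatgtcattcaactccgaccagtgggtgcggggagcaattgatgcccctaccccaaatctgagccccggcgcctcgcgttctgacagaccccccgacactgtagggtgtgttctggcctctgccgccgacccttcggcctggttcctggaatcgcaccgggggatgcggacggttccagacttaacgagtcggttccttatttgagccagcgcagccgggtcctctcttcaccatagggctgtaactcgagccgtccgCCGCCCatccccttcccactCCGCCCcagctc
Timp1 (chrX:20869916-20870215, plus strand): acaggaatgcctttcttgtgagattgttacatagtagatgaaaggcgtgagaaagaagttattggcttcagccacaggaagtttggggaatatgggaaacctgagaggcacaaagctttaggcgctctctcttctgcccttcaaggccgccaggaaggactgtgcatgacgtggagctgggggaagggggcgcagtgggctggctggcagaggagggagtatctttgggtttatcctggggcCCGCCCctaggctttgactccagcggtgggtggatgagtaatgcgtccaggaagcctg
Timp3 (chr10:86300162-86300461, plus strand): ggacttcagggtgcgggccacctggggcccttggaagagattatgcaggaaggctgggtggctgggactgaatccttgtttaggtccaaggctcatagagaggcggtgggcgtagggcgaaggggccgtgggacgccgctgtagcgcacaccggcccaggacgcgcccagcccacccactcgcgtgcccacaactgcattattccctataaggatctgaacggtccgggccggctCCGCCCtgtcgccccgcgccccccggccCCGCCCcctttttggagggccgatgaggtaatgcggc
Mmp28 (chr11:83462991-83463290, minus strand): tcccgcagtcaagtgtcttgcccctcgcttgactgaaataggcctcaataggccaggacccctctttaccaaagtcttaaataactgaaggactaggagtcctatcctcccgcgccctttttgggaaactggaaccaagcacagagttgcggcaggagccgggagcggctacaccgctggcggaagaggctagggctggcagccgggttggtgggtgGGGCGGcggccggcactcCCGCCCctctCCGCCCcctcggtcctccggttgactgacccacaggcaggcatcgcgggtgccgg

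Mmp23 had a second window that starts further upstream and holds no GC box. The GC box was found on either strand in 21 of the 29 windows (72.4%), against 35.7% of all 32851 windows in the table. The AP-1 site TGANTCA, the classic element of inducible MMP promoters, was found in only 2 of the 29 (6.90%, those of Mmp3 and Mmp13), against 7.81% of all windows. TATAAA was found in 5 (17.2% against 13.6%) and CACGTG in 1 (3.45% against 7.15%). The motifs were searched separately, so a base may count towards more than 1, and a match is a description of the sequence only. The 4 printed windows hold the GC box and none of the other motifs. Several of the genes are close neighbours. Mmp13, Mmp3, Mmp8 and Mmp27 lie with 4 more genes of matching symbol in chr9:7272514-7699585 (mm10 coordinates, GENCODE vM21), and Adamts1 and Adamts5 are adjacent on chromosome 16.

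Levels between genes were compared as normalized counts per kb of exon. The inhibitors and a few enzymes dominated: Timp2 averaged 3315 ± 989 per kb (SD, n = 29), Timp3 2980 ± 1240, and the gelatinase Mmp2 1797 ± 691. Adamts5, an aggrecanase that cleaves aggrecan and versican, followed at 806 ± 630, then Timp4 at 781 ± 533, stromelysin-1 (Mmp3) at 754 ± 251 and the membrane-type enzyme Mmp14 at 583 ± 195. The spreads of these last 4 overlap. Timp1, the inducible inhibitor, stood only 22nd of 43 at 67.3 ± 53.6 per kb. The collagenase Mmp13 averaged 13.1 and the neutrophil collagenase Mmp8 5.50 per kb, and Adamts19 was the lowest at 1.28. The ranges in the plot of levels show Mmp25, Mmp8, Adamts13 and Adamts16 spanning far more than Mmp17 or Adamts10. The range of Mmp25 followed the lymph node transcripts. It held 6.69 to 27.3 normalized counts in the 8 libraries with few of them and 89.7 to 417 in the rest.

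**Figure D1:**
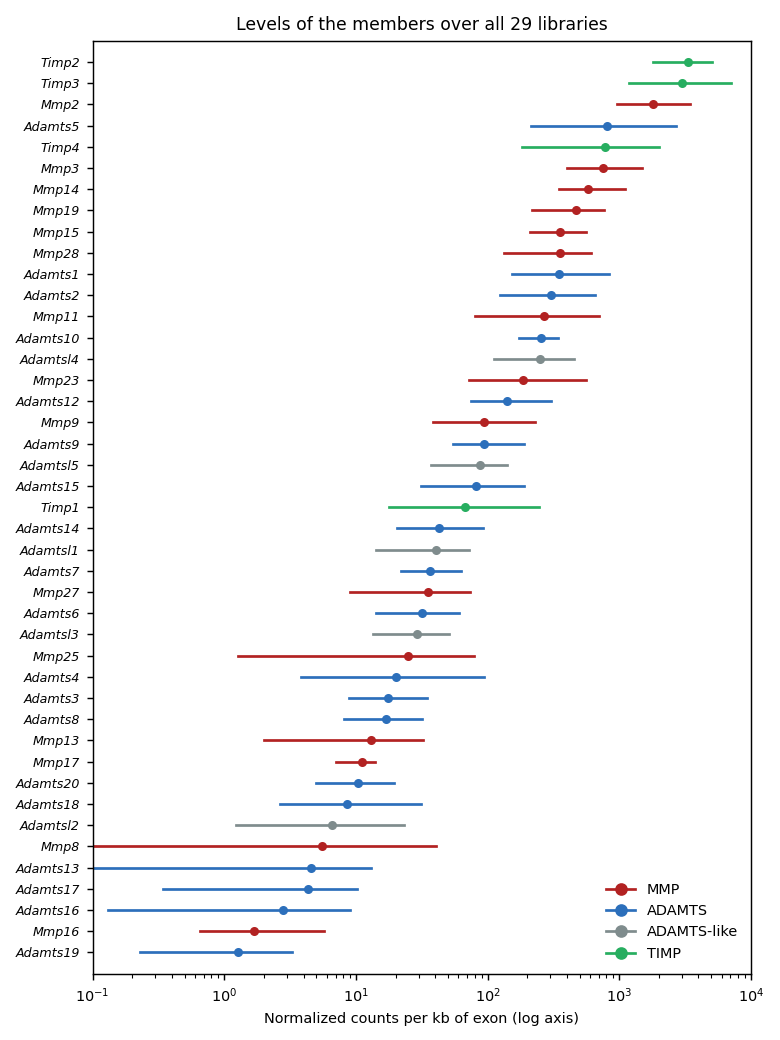
Normalized counts per kb of exon (log axis) for the 43 genes, ordered by mean. Points are means over 29 libraries and lines run from the lowest to the highest library; lines that reach 0 (Mmp8, Adamts13) are drawn from the left edge at 0.1. Timp2, Timp3 and Mmp2 head the order and Adamts19 ends it.

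Across all 6 groups, 16 of the 43 genes differed by limma's F-test at an adjusted p under 0.05, that is 37.2%, against a background of 33.6% of the 19224 genes tested. With lane as a term the count was 8, against 28.4% of all genes, so the share then lay below the background instead of above it. The F-test calls lost with that term were Mmp9, Mmp11, Mmp28, Adamts10, Adamts13, Adamts16, Adamts17 and Adamts20 (adjusted p 0.0504 to 0.0802). Of the calls between groups it ended those of Mmp11 (adjusted p = 0.0614), Mmp28 (0.0685) and Adamts2 (0.0541) in Obese, Adamtsl2 in LFCR (0.0585), Adamts6 (0.0674) and Adamts10 (0.0794) in MCR, Adamts14 (0.0524) and Adamts16 (0.0776) in ICR, Mmp9 in the restricted diets against LFD (0.0818), and Adamtsl3, Adamtsl4 and Adamtsl5 in the 4 diets against Control (0.0588 to 0.0652). Against the background of each comparison the counts were as follows. Between Obese and Control, 8 genes (18.6%; background 12.9%) changed: 7 rose (background 9.49% for rises) and 1 fell (background 3.46%). The median log2 difference was 0.40 over the 43 genes and -0.03 over all genes. Between LFCR and Obese, 12 fell and 0 rose (27.9%; background 21.6% in either direction, 12.1% for rises and 9.51% for falls), with medians of -0.33 and -0.04. MCR against Obese gave 5 calls (11.6%; background 12.5%), of which 1 rose (background 6.73%) and 4 fell (background 5.75%). ICR against Obese gave 5 falls (11.6%; background 9.31% in either direction, 4.04% for rises and 5.27% for falls), and LFD against Obese gave 2 calls, 1 in each direction (4.65%; background 6.03%, of which 2.73% higher and 3.3% lower). The shares for MCR, ICR and LFD therefore lay near the background. These 4 diet comparisons use the same Obese libraries and are not independent of one another. Of the 43 genes, 26 were called in at least 1 comparison and 17 in none, among them the abundant Timp2, Mmp2, Mmp3 and Mmp14, and Mmp13 and Adamts1. Adamts18 was called only by the F-test over the 6 groups, and 21 of the 29 fits that left out 1 library lost that call.

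**Figure D2:**
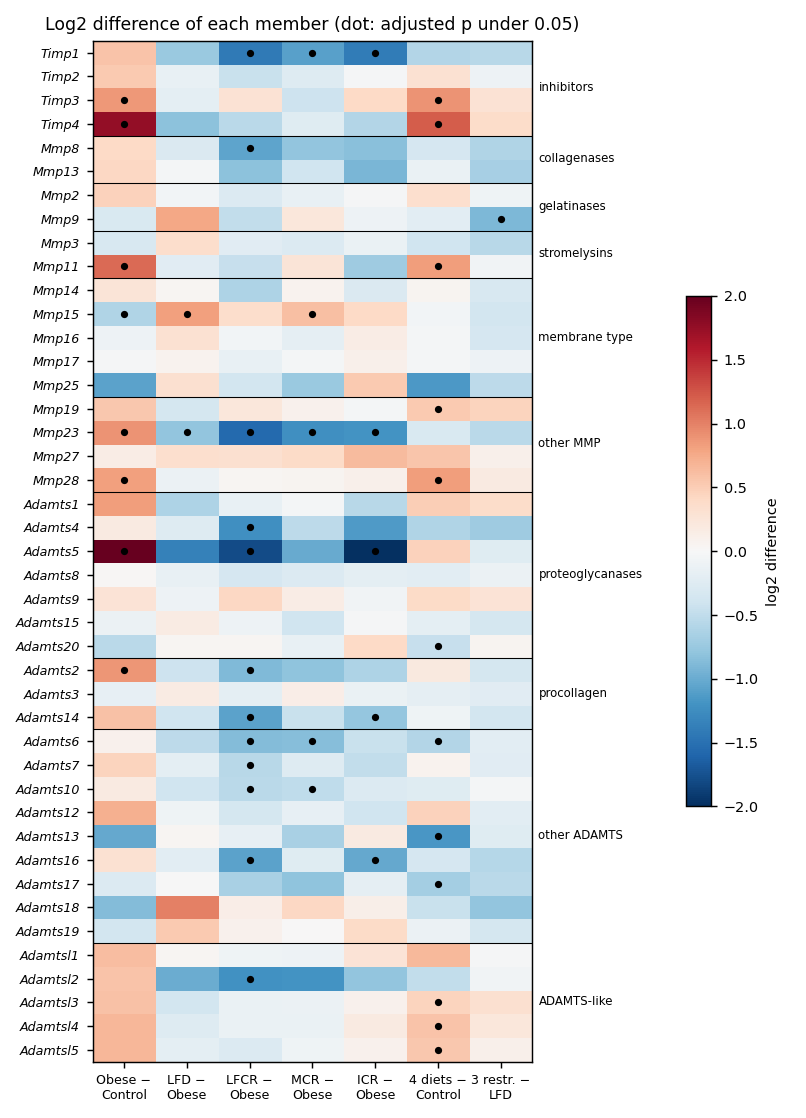
Log2 difference of each of the 43 genes (rows, ordered by role) in 7 comparisons (columns); red is higher in the first group, blue lower, the scale ends at 2 in either direction, and dots mark an adjusted p under 0.05 (limma). "4 diets" is the mean of LFD, LFCR, MCR and ICR, and "3 restr." that of LFCR, MCR and ICR. The LFCR column holds 12 dots, all in blue cells, and the Mmp23 row is dotted in the first 5 columns.

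Mmp23, a small membrane-anchored metalloproteinase that is released by furin cleavage and carries a domain resembling a potassium-channel toxin, was the one member called in all 5 comparisons that include Obese. It lies on the minus strand of chr4:155650655-155653384. The 5 Control libraries held 392, 498, 419, 361 and 364 normalized counts, and the 5 Obese libraries 1306, 686, 575, 582 and 926. LFD libraries held 586, 509, 433, 399 and 302, LFCR libraries 198, 246, 170, 293 and 361, MCR libraries 272, 405, 388 and 230, and ICR libraries 427, 380, 172, 325 and 386. Every Obese library was above every Control, LFCR, MCR and ICR library, and only LFD 1 reached into the Obese range. The log2 difference between Obese and Control was 0.90 ± 0.24 (SE; limma, adjusted p = 0.0146). From Obese it fell in all 4 diets, with log2 differences of -0.79 ± 0.24 in LFD (adjusted p = 0.0457), -1.56 ± 0.24 in LFCR (adjusted p = 5.7e-05), -1.23 ± 0.25 in MCR (adjusted p = 0.00243) and -1.19 ± 0.24 in ICR (adjusted p = 0.00219). Within sequencing lanes, where at most 1 library of a group shares a lane, Obese was the higher in 4 of 4 lanes against Control, LFD, LFCR and ICR and in 3 of 3 against MCR.

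The 2 highest Obese values of Mmp23 came from Obese 1 and 5, the Obese libraries with few lymph node transcripts. When all 8 such libraries were left out, the LFCR difference was -0.98 (adjusted p = 0.0107) and the ICR difference -0.86 (adjusted p = 0.0169), while the difference between Obese and Control was 0.57 (adjusted p = 0.166), the LFD difference -0.57 (adjusted p = 0.154) and the MCR difference -0.57 (adjusted p = 0.56). The rise in Obese also lost its call without Obese 1 alone (adjusted p = 0.0689) or Obese 5 alone (0.0506). The fall in LFD lost its call without Obese 1, Obese 2, Obese 5, LFD 3, LFD 4 or LFD 5, with adjusted p from 0.0654 to 0.152.

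Timp1 encodes the inhibitor most strongly induced by inflammation and injury. Obese libraries held 218, 75.2, 99.2, 43.3 and 196 normalized counts, against 54.9, 98.0, 76.1, 54.2 and 55.0 in Control. The Obese and Control values overlapped, and their difference did not pass the test (log2 difference 0.58 ± 0.30, adjusted p = 0.202). LFCR libraries held 16.1, 22.7, 37.8, 36.8 and 29.1, MCR libraries 33.3, 31.0, 34.2 and 69.0, and ICR libraries 16.0, 22.6, 19.4, 23.5 and 79.0. All LFCR libraries lay below all Obese libraries, and in MCR and ICR all but 1 did. Timp1 fell in all 3, with log2 differences of -1.41 ± 0.30 in LFCR (adjusted p = 0.00131), -1.08 ± 0.32 in MCR (adjusted p = 0.0261) and -1.40 ± 0.30 in ICR (adjusted p = 0.00368). In LFD, with 82.7, 30.0, 55.7, 75.3 and 49.8 normalized counts, the difference of -0.74 did not pass (adjusted p = 0.147).

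The 2 highest Timp1 values were again those of Obese 1 and 5. Without the 8 libraries the difference was -0.84 in LFCR (adjusted p = 0.0732), -0.79 in MCR (adjusted p = 0.537) and -0.88 in ICR (adjusted p = 0.049). The MCR call was also lost without Obese 1, Obese 5, MCR 1 or MCR 3, with adjusted p from 0.0681 to 0.0837. Timp1 lies wholly inside Syn1, on the opposite strand, and the strand setting of the read counting is not given in the sources used here. Syn1 was itself lower in LFCR (log2 difference -0.67, adjusted p = 0.0094) and in MCR (-0.60, adjusted p = 0.0455), with 20.5 to 87.8 normalized counts per library, so reads of the 2 genes cannot be told apart with certainty.

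Timp3, the matrix-bound inhibitor that also blocks ADAMTS enzymes and the sheddase ADAM17, rose in Obese. Its mean over the 4 weight-loss diets was higher than in Control. Control libraries held 9608, 10389, 14635, 25580 and 10900 normalized counts and Obese libraries 27908, 18456, 22819, 25259 and 28443. ICR libraries held 34291, 40480, 32659, 31826 and 23859, LFCR libraries 57913, 26833, 24712, 23096 and 25546, LFD libraries 32285, 24298, 18448, 26651 and 10948, and MCR libraries 22260, 11262, 21393 and 20969. One Control library (Control 4) lay inside the Obese range and the other 4 below it. All MCR libraries and LFD 2, 3 and 5 lay inside the Control range. The log2 difference was 0.87 ± 0.29 between Obese and Control (adjusted p = 0.0473) and 0.89 ± 0.23 between the mean of the 4 diets and Control (adjusted p = 0.00931). None of the diets differed from Obese in Timp3 by the test (log2 differences of -0.20, 0.28, -0.41 and 0.41 in LFD, LFCR, MCR and ICR).

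Timp4, an inhibitor abundant in heart and fat, showed 1083, 1858, 3320, 2143 and 1082 normalized counts in Control and 11041, 4336, 3920, 4525 and 8486 in Obese, with no overlap. Its log2 difference was 1.76 ± 0.52 (adjusted p = 0.0278), and that of the mean of the 4 diets from Control was 1.21 ± 0.42 (adjusted p = 0.0312). Each diet group overlapped Control, with 1499 to 6244 normalized counts in LFD, 2683 to 11759 in LFCR, 1449 to 11182 in MCR and 1995 to 9173 in ICR. Timp2, the inhibitor that also helps Mmp14 activate Mmp2, was the highest per kb and passed in no comparison (Obese minus Control 0.52, adjusted p = 0.194). Of the 4 inhibitors 2 rose in Obese (background 9.49%), and 1, Timp1, fell in LFCR, MCR and ICR (background 9.51%, 5.75% and 5.27%). Their median difference was 0.72 in Obese and -0.49, -0.33 and -0.30 in these 3 diets.

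With those 8 libraries left out, the Obese differences were 0.73 for Timp3 (adjusted p = 0.192) and 1.28 for Timp4 (adjusted p = 0.152), and the diet differences from Control 0.62 for Timp3 (adjusted p = 0.0924) and 0.61 for Timp4 (adjusted p = 0.265). Single libraries also ended these calls. For Timp3 in Obese these were Control 1, 2, 3 and 5 and Obese 1, 3, 4 and 5 (adjusted p 0.056 to 0.136), and for Timp4 in Obese Control 1 and 5 and Obese 1 and 5 (adjusted p 0.0787 to 0.102). For the 4 diets against Control they were Control 1 and 2 for Timp3 (adjusted p 0.0562 and 0.0536) and Control 1, 2 and 5 for Timp4 (adjusted p 0.0844 to 0.115). Timp3 lies inside Syn3 and Timp4 inside Syn2, each on the opposite strand. Syn3, with 31.2 to 120 normalized counts per library, was itself higher after the 4 diets than in Control (log2 difference 0.37, adjusted p = 0.0378). Adipocyte genes moved with both inhibitors: 2 of the 5 rose in Obese (background 9.49%) and 4 of the 5 were higher after the diets than in Control (background 17.3%). None was at 0, and their summed level was 63279 to 170708 normalized counts in Control and 167817 to 374261 in Obese. Their part in the Timp3 and Timp4 differences was not tested.

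**Figure D3:**
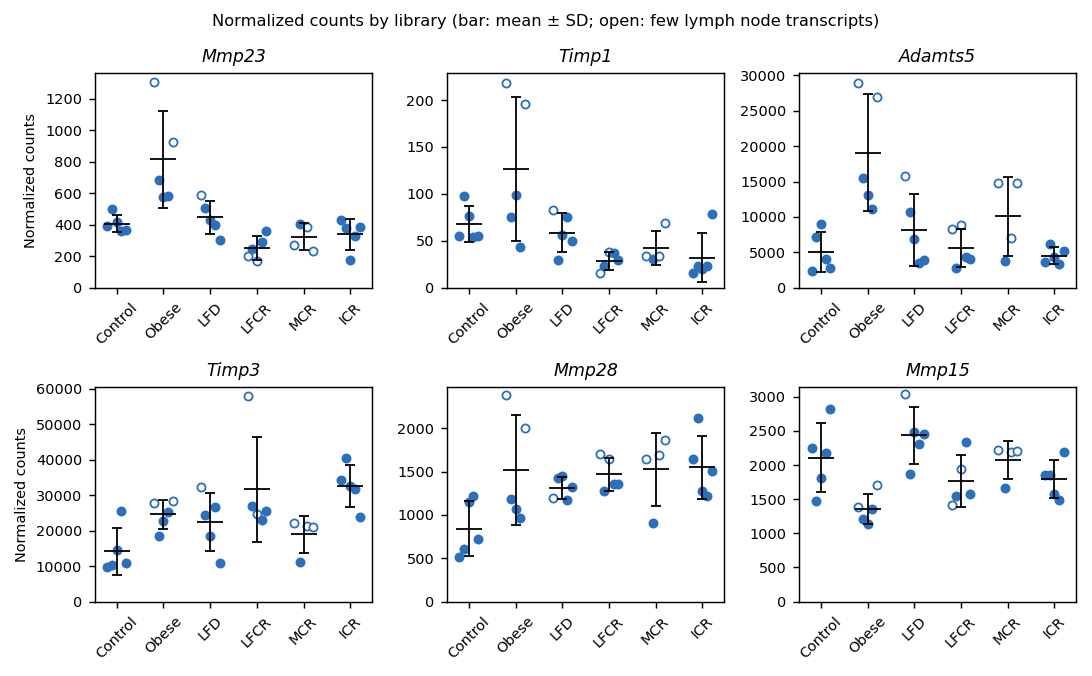
Normalized counts of 6 genes in each library by group; points are libraries, open points the 8 libraries with few lymph node transcripts, and bars the mean ± SD (n = 5, or 4 for MCR). Mmp23, Timp1 and Adamts5 reach their highest values in Obese 1 and 5, Timp3 and Mmp28 are lowest in Control, and Mmp15 is lowest in Obese.

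Among the membrane-type enzymes, Mmp15, which activates Mmp2 at the cell surface, was the only one of 5 called in any comparison, and it went the other way from Mmp23. Control libraries held 2245, 1474, 1814, 2169 and 2820 normalized counts, Obese libraries 1389, 1210, 1139, 1360 and 1708, and LFD libraries 3045, 1872, 2490, 2314 and 2453. All LFD libraries were above all Obese libraries, whereas Control 2 lay inside the Obese range. MCR libraries held 2216, 1657, 2197 and 2208. Mmp15 fell by 0.60 ± 0.16 in Obese against Control (adjusted p = 0.0155), then rose by 0.82 ± 0.16 in LFD (adjusted p = 0.00416) and by 0.60 ± 0.17 in MCR (adjusted p = 0.0218) against Obese. In LFCR and ICR the differences from Obese were 0.36 (adjusted p = 0.118) and 0.39 (adjusted p = 0.132). Without the 8 libraries they were -0.73 in Obese (adjusted p = 0.0347), 0.87 in LFD (adjusted p = 0.0445) and 0.42 in MCR (adjusted p = 0.62).

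Luminal epithelium genes moved with Mmp15. Of the 9 genes of that list (Epcam, Krt8, Krt18, Krt19, Cdh1, Cldn3, Cldn7, Esr1, Prlr), 3 fell in Obese against Control (background 3.46%). Against Obese, 8 rose in LFD (background 2.73%) and 2 in MCR (background 6.73%), and none was at 0. Their summed level ranged from 16028 to 29810 normalized counts in Obese, 20839 to 66679 in Control and 25141 to 105383 in LFD. With the mean of that list as a covariate the Mmp15 difference was -0.19 in Obese (adjusted p = 0.247), 0.19 in LFD (adjusted p = 0.602) and 0.23 in MCR (adjusted p = 0.302). The Obese fall also lost its call without Control 5 (adjusted p = 0.0604), and the MCR rise without Obese 2, Obese 3, MCR 1, MCR 3 or MCR 4 (adjusted p 0.0572 to 0.0765). Mmp14, the main activator of Mmp2, held 2440 to 5705 normalized counts in Obese and 2092 to 2866 in LFCR, a log2 difference of -0.62 (adjusted p = 0.0636).

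Mmp28 (epilysin), which is found in many resting tissues, was higher in Obese and after weight loss than in Control. Control libraries held 517, 611, 1144, 1216 and 720 normalized counts and Obese libraries 2381, 1178, 1071, 966 and 1997. LFD libraries held 1196, 1424, 1446, 1176 and 1322, LFCR libraries 1703, 1278, 1640, 1362 and 1354, MCR libraries 1645, 905, 1691 and 1860, and ICR libraries 1644, 2120, 1274, 1213 and 1508. All LFCR libraries lay above all Control libraries, while Control 3 and 4 lay within the Obese range. The log2 difference was 0.82 ± 0.24 in Obese (adjusted p = 0.0268) and 0.83 ± 0.19 for the mean of the 4 diets (adjusted p = 0.00573), and from Obese to each diet it was at most 0.12 in size. Once the 8 were left out, these were 0.41 (adjusted p = 0.361) and 0.64 (adjusted p = 0.0414). In Obese the call was lost without Control 1, 2 or 5 or Obese 1 or 5 (adjusted p 0.0644 to 0.117), and Obese was the higher in 2 of 4 lanes. Adipocyte genes moved in the same direction, as given above, and their part was not tested. Mmp28 overlaps 1700020L24Rik on the other strand.

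Mmp11 (stromelysin-3), known as a brake on adipocyte differentiation, held 480, 223, 384, 554 and 378 normalized counts in Control and 1448, 1337, 499, 445 and 1185 in Obese, where Obese 3 and 4 overlapped Control. Mmp11 overlaps Chchd10 on the other strand. It rose by 1.13 ± 0.34 in log2 (adjusted p = 0.0315), and the mean of the 4 diets was 0.84 ± 0.27 above Control (adjusted p = 0.0251). Without the 8 libraries these were 0.75 (adjusted p = 0.27) and 0.65 (adjusted p = 0.126). The Obese call was lost without Control 2 or 5 or Obese 1, 2 or 5 (adjusted p 0.0637 to 0.118), and that of the diets without Control 1 or 2 (0.0606 and 0.122). Mmp3, the other stromelysin measured, passed nowhere, with 959 to 2022 normalized counts in Obese and 1072 to 1968 in Control. Mmp19 was higher after the 4 diets than in Control (0.53 ± 0.18, adjusted p = 0.0319). That call was lost without Control 1, 2 or 5 (adjusted p 0.055 to 0.154) and without the 8 libraries (0.29, adjusted p = 0.234).

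Among the gelatinases and collagenases, Mmp9 and Mmp8 were each called in 1 comparison between groups, and Mmp2 and Mmp13 in none. Mmp2 held 4341 to 10385 normalized counts in Obese and 3550 to 7327 in Control (log2 difference 0.46, adjusted p = 0.343). Mmp9, the gelatinase of neutrophils and macrophages, held 630, 257, 813, 666 and 315 in LFD, against 269, 147, 188, 136 and 232 in LFCR, 267, 190, 616 and 362 in MCR and 350, 179, 255, 274 and 255 in ICR. LFD 2 and LFD 5 lay within the range of the restricted groups and LFD 1, 3 and 4 above all of them. The mean of the 3 restricted diets minus LFD was -0.89 ± 0.24 (adjusted p = 0.0376). It was the only one of the 43 genes called there (2.33%; background 3.37% in either direction, 1.71% for rises and 1.66% for falls). The call was lost without LFD 1, 3 or 4, LFCR 2 or 3, MCR 1 or ICR 2 (adjusted p 0.0507 to 0.174) and without the 8 libraries (difference -1.10, adjusted p = 0.198). Luminal genes moved here as well, with 3 of 9 lower in the restricted diets than in LFD, and with their mean as a covariate the Mmp9 difference was -0.78 (adjusted p = 0.155).

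Mmp8 fell by 1.06 ± 0.33 in LFCR (adjusted p = 0.0209), from 8.47, 22.7, 99.2, 23.9 and 3.92 normalized counts in Obese to 1.34, 3.24, 1.99, 7.19 and 2.65. That is a change at very low counts, in which the transform compresses differences, and it was lost without Obese 3 (adjusted p = 0.0832). Leaving out the 8 libraries, it was -1.47 (adjusted p = 0.017). The neutrophil list moved in the same direction: 3 of its 5 genes fell in LFCR (background 9.51%) and none was at 0. Its summed level was 99.4 to 567 normalized counts there and 304 to 2179 in Obese. Mmp13 held 20.5 to 86.1 in Obese and 5.35 to 34.8 in LFCR, a log2 difference of -0.82 (adjusted p = 0.0879).

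In the ADAMTS family Adamts5 showed the largest change of the 43 genes between Obese and Control. Control libraries held 2295, 7087, 8958, 3995 and 2808 normalized counts, and Obese libraries 28964, 15536, 13042, 11048 and 26907, with no overlap. It rose by 2.00 ± 0.46 in log2 (adjusted p = 0.00564). ICR libraries held 3610, 6173, 4328, 3270 and 5208 and LFCR libraries 8217, 2703, 8797, 4316 and 4036, all below all Obese libraries. Adamts5 fell by 2.00 ± 0.46 in ICR (adjusted p = 0.0058), and in LFCR the difference was -1.79 ± 0.46 (adjusted p = 0.00559). LFD libraries held 15746, 10657, 6819, 3436 and 3974, and MCR libraries 14858, 3787, 7049 and 14759. Both groups overlapped Obese, and their differences of -1.36 (adjusted p = 0.0761) and -1.02 (adjusted p = 0.179) did not pass. No test showed that the diets differ from one another in Adamts5 (F-test over LFCR, MCR and ICR, adjusted p = 0.484).

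The Adamts5 calls held in each fit that left out 1 library. Without the 8 libraries the differences were 1.57 in Obese (adjusted p = 0.0414), -1.85 in LFCR (adjusted p = 0.0106) and -1.57 in ICR (adjusted p = 0.0199). Obese was the higher in 4 of 4 lanes against Control, LFCR and ICR. Its neighbour Adamts1, an enzyme of the same proteoglycan-cleaving group, had 818 to 1574 normalized counts in Control and 1611 to 4402 in Obese, which do not overlap, yet the difference of 0.83 ± 0.31 did not pass (adjusted p = 0.0771). Adamts4, the other main aggrecanase, fell in LFCR by 1.23 ± 0.44 (adjusted p = 0.0455), from 31.4 to 452 normalized counts in Obese to 20.7 to 86.4. The 2 groups overlapped, and the call was lost without Obese 1, 2 or 5 or LFCR 1, 2, 4 or 5 (adjusted p 0.0689 to 0.156) and without the 8 libraries (-0.69, adjusted p = 0.219). In the group of 7 proteoglycanases 1 rose in Obese (background 9.49%), 2 fell in LFCR (background 9.51%), 1 fell in ICR (background 5.27%) and 0 changed in LFD or MCR. Their median difference was 0.18 in Obese, -0.15 in LFCR and -0.20 in ICR.

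Of the 3 enzymes that remove the N-terminal propeptide of fibrillar procollagens, Adamts2, Adamts3 and Adamts14, 1 rose in Obese (background 9.49%) and 2 fell in LFCR (background 9.51%). Adamts2 held 2011, 1826, 2979, 2823 and 1585 normalized counts in Control, 5166, 3786, 3614, 2432 and 6079 in Obese and 2899, 1654, 2480, 1909 and 2050 in LFCR. Only Obese 4 overlapped the other groups. It rose by 0.88 ± 0.27 in Obese (adjusted p = 0.0345) and fell by 0.89 ± 0.27 in LFCR (adjusted p = 0.0199). The rise was lost without Control 1, 2 or 5 or Obese 1 or 5 (adjusted p 0.0718 to 0.126), and the fall without Obese 1, Obese 5 or LFCR 2 (0.0517 to 0.0631). After removal of the 8 libraries they were 0.56 (adjusted p = 0.166) and -0.78 (adjusted p = 0.03).

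Adamts14 held 413, 266, 316, 192 and 477 normalized counts in Obese, 142, 147, 107, 113 and 195 in LFCR and 215, 150, 117, 175 and 253 in ICR. It fell by 1.07 ± 0.24 in LFCR (adjusted p = 0.00211), where LFCR 5 exceeded Obese 4 by a few counts and the groups were otherwise apart. In ICR it fell by 0.77 ± 0.24 (adjusted p = 0.044), a call lost without Obese 1, 2, 3 or 5 or ICR 1, 2, 3 or 4 (adjusted p 0.0529 to 0.13). Without the 8 libraries the differences were -0.68 (adjusted p = 0.0797) and -0.47 (adjusted p = 0.185). Adamts3 held 78.7 to 102 in Obese and 48.2 to 114 in LFCR and passed nowhere.

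Of the 9 remaining ADAMTS genes, 4 fell in LFCR (background 9.51%), with a median difference of -0.53. Adamts10, which binds fibrillin microfibrils, fell by 0.53 ± 0.15 (adjusted p = 0.0104), from 2338 to 2845 normalized counts in Obese to 1424 to 2124, with no overlap. Its paralog Adamts6 fell (-0.87 ± 0.26, adjusted p = 0.0162), as did Adamts16 (-1.07 ± 0.31, adjusted p = 0.0152) and Adamts7, which cleaves cartilage oligomeric matrix protein (-0.56 ± 0.19, adjusted p = 0.0386). Adamts6 lost the call without Obese 3 or LFCR 1 or 3 (adjusted p 0.0525 to 0.0563), and Adamts7 without Obese 1, 2 or 5 or LFCR 1, 2, 4 or 5 (0.0516 to 0.112). Adamts16 sat at 12.0 to 57.9 normalized counts in Obese and 0.898 to 13.4 in LFCR, close to the minimum. In the 21 other libraries the LFCR differences were -0.41 for Adamts10 (adjusted p = 0.0521), -0.87 for Adamts6 (adjusted p = 0.0056), -0.84 for Adamts16 (adjusted p = 0.148) and -0.27 for Adamts7 (adjusted p = 0.285).

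In MCR, both Adamts6 (-0.86 ± 0.27, adjusted p = 0.0392) and Adamts10 (-0.51 ± 0.16, adjusted p = 0.0331) fell. Both falls rest on MCR 1, 3 and 4: MCR 2 held 348 normalized counts of Adamts6 and 2695 of Adamts10, inside the Obese range, against 111 to 148 and 1418 to 1862 in the other 3. With MCR 2 as the one library left, after the 8 were set aside, the differences were -0.24 (adjusted p = 0.779) and 0.01 (adjusted p = 0.991). Both calls were also lost without Obese 2, 3 or 4 or MCR 1, 3 or 4 (adjusted p 0.0537 to 0.17). In ICR, Adamts16 fell by 1.03 ± 0.31 (adjusted p = 0.0373). ICR libraries held 5.33, 1.88, 2.15, 11.3 and 11.3 normalized counts, below the lowest Obese value of 12.0, and the call was lost without Obese 1, 2 or 5 or ICR 1, 2 or 3 (adjusted p 0.0689 to 0.116) and without the 8 libraries (-0.66, adjusted p = 0.211).

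When the mean of the 4 weight-loss diets was set against Control, 12 of the 43 genes were called (27.9%; background 33.8%): 8 were higher (background 17.3%) and 4 lower (background 16.5%), and the members' median was -0.06. The share thus lay below the background. The higher genes were Timp3, Timp4, Mmp28, Mmp11 and Mmp19, described above, and 3 of the 5 ADAMTS-like genes, Adamtsl3, Adamtsl4 and Adamtsl5, whose proteins carry no protease domain and associate with matrix (log2 differences of 0.45 ± 0.17, 0.57 ± 0.22 and 0.54 ± 0.21, adjusted p of 0.0417, 0.0463 and 0.0472). In Obese these 3 differed from Control by 0.58, 0.66 and 0.66 without passing. Adamtsl2, a microfibril-associated member, fell by 1.21 ± 0.39 in LFCR against Obese (adjusted p = 0.0248), from 51.5 to 151 normalized counts to 13.2 to 68.3. It lost that call without Obese 4 or 5 or LFCR 2, 3 or 5 (adjusted p 0.0575 to 0.0669), and without the 8 libraries the difference was -1.42 (adjusted p = 0.0417).

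The 4 lower genes were Adamts13, Adamts17, Adamts20 and Adamts6. Adamts13, which cuts von Willebrand factor, held 64.5, 63.3, 32.6, 54.2 and 43.5 normalized counts in Control. Every library of LFD, LFCR, MCR and ICR held less than every Control library, from 0 in MCR 4 to 29.7 in LFD 5. The diet libraries with few lymph node transcripts held the lowest values, 0 to 5.12, and the other diet libraries 11.3 to 29.7. No Control library had few such transcripts. The fitted difference was -1.17 ± 0.29 (adjusted p = 0.00825), and -0.72 without the 8 libraries (adjusted p = 0.0241). Adamts17, Adamts20 and Adamts6 differed by -0.68 ± 0.22, -0.46 ± 0.15 and -0.58 ± 0.21 (adjusted p of 0.0246, 0.0255 and 0.0337), and without the 8 libraries -0.34, -0.27 and -0.23 (adjusted p of 0.185, 0.14 and 0.231). Each of the last 3 calls was lost without Control 1 or 2, and that of Adamts6 also without Control 3 or 5 (adjusted p 0.0537 to 0.125 over the 3 genes). The 3 ADAMTS-like calls ended without the 8 libraries (0.28, 0.26 and 0.22, adjusted p of 0.233, 0.347 and 0.399) and without Control 1, 2 or 5 and several diet libraries, with adjusted p up to 0.186. Among the 3 restricted diets the F-test called 0 of the 43 genes (limma; 0% of all 19224), and 5 of the 43 had an unadjusted p under 0.05. With voom on recovered reads the count was also 0.

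Macrophage genes moved in the same direction as Mmp23, Timp1 and Adamts5. Timp3 and Mmp28 rose in Obese as well but stayed near their Obese levels after the diets, and Mmp15 went the other way. Of the 6 general macrophage genes (Adgre1, Cd68, Csf1r, Mrc1, Itgam, Cd163), 2 rose in Obese against Control, and 1, 4, 4 and 3 fell in LFD, LFCR, MCR and ICR against Obese. Of 7 genes of lipid-associated macrophages (Trem2, Cd9, Lgals3, Gpnmb, Spp1, Itgax, Atp6v0d2) 4 rose in Obese, and 4, 5, 5 and 5 fell in the 4 diets. Over all genes 9.49% rose in Obese, and 3.3%, 9.51%, 5.75% and 5.27% fell in LFD, LFCR, MCR and ICR. None of the 13 was at 0. The summed level of the first list ranged from 8969 to 22330 normalized counts in Control, 15544 to 27325 in Obese, 11274 to 21463 in LFD, 6558 to 22139 in LFCR, 9602 to 18390 in MCR and 13426 to 18789 in ICR. That of the second ranged from 6621 to 8519 in Control, 7558 to 22490 in Obese, 6333 to 12519 in LFD, 5539 to 7134 in LFCR, 6413 to 10521 in MCR and 6409 to 7869 in ICR. With the mean of the first list as a covariate, 0 of the 43 genes were called between Obese and Control, where that fit called 2.29% of all genes, and 6 between LFCR and Obese, where it called 11.6%. The counts were thus near the share over all genes. The difference was then -1.09 for Mmp23 in LFCR (adjusted p = 0.017) and -0.96 in ICR (adjusted p = 0.0137). For Timp1 it was -1.12 in LFCR (adjusted p = 0.0605) and for Adamts5 1.54 in Obese (adjusted p = 0.0902), -1.03 in LFCR (adjusted p = 0.205) and -1.63 in ICR (adjusted p = 0.0334). The part of these cells in the changes beyond these fits was not tested.

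**Figure D4:**
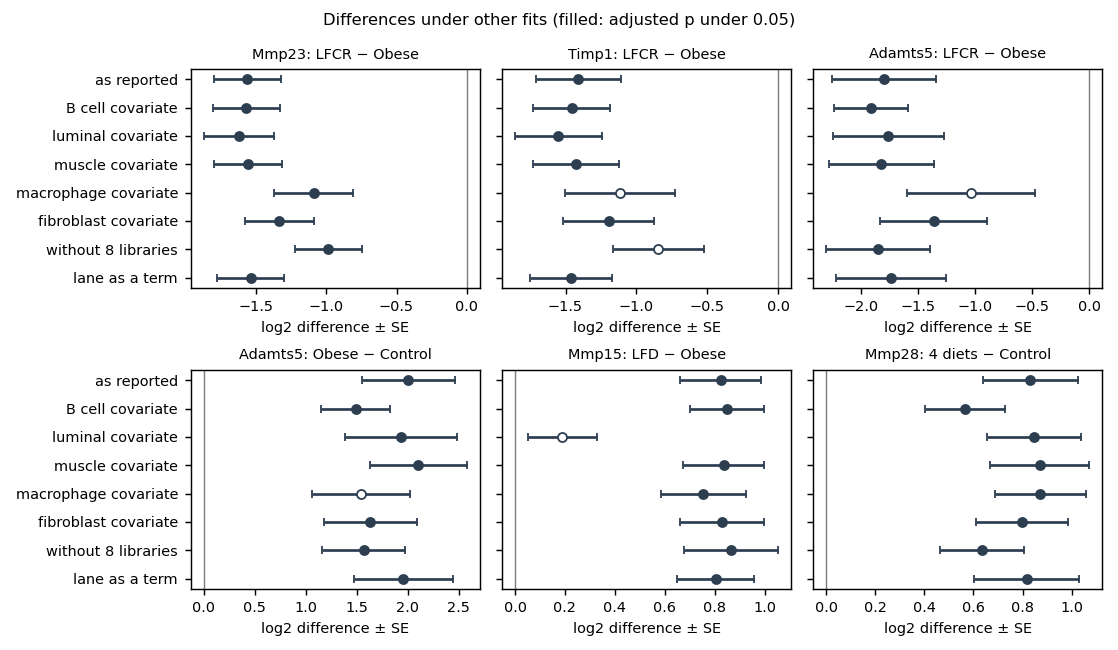
Log2 difference ± SE of 6 changes (panels) in the fit reported and in 7 other fits (rows); filled points have an adjusted p under 0.05. Mmp23 in LFCR stays filled in all rows, Timp1 in LFCR opens with the macrophage covariate and without the 8 libraries, and Mmp15 in LFD shrinks from 0.82 to 0.19 with the luminal covariate.

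Of 5 endothelial genes (Pecam1, Cdh5, Tie1, Kdr, Emcn), 3 rose in Obese (background 9.49%), with a summed level of 21052 to 24427 normalized counts in Control and 27904 to 39986 in Obese. In LFD, LFCR, MCR and ICR 2, 1, 1 and 2 fell (background 3.3%, 9.51%, 5.75% and 5.27%). The fibroblast and adipocyte progenitor list (Pdgfra, Pdgfrb, Dpp4, Pi16, Col1a1, Col1a2, Col3a1) had 1 of 7 genes higher in Obese than in Control (background 9.49%) and 0 of 7 changed in any diet against Obese. Its summed level was 61123 to 161047 normalized counts in Obese and 49046 to 82654 in LFCR. With its mean as a covariate 3 of the 43 genes were called between Obese and Control, and 4.7% of all genes. Skeletal muscle genes were high in single libraries, with a summed level of up to 39722 normalized counts in Obese 2 and 24166 in LFD, against at most 485 in Control, and none of the list's 6 genes was called in any of these comparisons.

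The wider matrix-protease system was described with 5 more lists, whose counts stand beside the same shares of all genes as above: 9.49% rose in Obese and 3.3%, 9.51%, 5.75% and 5.27% fell in LFD, LFCR, MCR and ICR. In the plasminogen system, which activates MMP zymogens, 3 of the 6 genes tested rose in Obese, among them the protease inhibitor Serpine2 (1.94, adjusted p = 0.0014). In LFD, LFCR, MCR and ICR 2, 4, 3 and 2 of them fell against Obese, among them the urokinase receptor Plaur (-0.89, -1.37, -1.24 and -1.16, adjusted p of 0.0316, 0.0003, 0.0029 and 0.0035). The medians of the list were 1.09 in Obese and -1.13, -1.15, -0.89 and -1.08 in the 4 diets, against -0.03 and 0.00, -0.04, -0.04 and 0.01 over all genes. Of 8 ADAM sheddases 2 rose in Obese, and 2, 4, 1 and 1 fell in the 4 diets, where the medians were 0.06 and -0.22, -0.44, -0.46 and -0.33. The single falls in MCR and ICR were of Adam8 alone. Adam8, an enzyme of myeloid cells, fell in each of them (-1.39, -2.24, -2.22 and -1.71, adjusted p of 0.0432, 0.0003, 0.0016 and 0.0084).

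Of 13 other matrix proteases and helpers 7 rose in Obese, among them cathepsin L (Ctsl, 1.13, adjusted p = 0.0013) and the procollagen C-proteinase enhancer Pcolce (1.06, adjusted p = 0.0037), and 2, 5, 4 and 2 fell in the 4 diets. The medians were 0.56 and -0.40, -0.40, -0.37 and -0.39. Among the substrates, 3 of 7 proteoglycans and link proteins rose in Obese, among them perlecan (Hspg2, 1.46, adjusted p = 0.0006), and 3, 3, 3 and 2 fell in the diets, with medians of 0.40 and -0.48, -0.66, -0.36 and -0.73. Biglycan (Bgn) fell in all 4 (-0.84, -0.86, -0.92 and -0.73, adjusted p of 0.0139, 0.0027, 0.0052 and 0.0209). Of 10 microfibril and elastin genes 2 rose and 2 fell in Obese (background for falls 3.46%), with a median of 0.35, and 2, 4, 2 and 2 fell in the diets, with medians of -0.16, -0.62, -0.22 and -0.14. Fbln5, which assembles elastic fibers, rose by 1.94 in Obese (adjusted p = 0.0002) and fell in LFD, LFCR, MCR and ICR against Obese (-1.30, -1.82, -1.73 and -1.64, adjusted p of 0.0108, 0.0001, 0.0008 and 0.0009).

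These lists were also counted in the fit without the 8 libraries with few lymph node transcripts, chosen after seeing the data, in which 2.67% of all genes rose in Obese and 0.536%, 7.96%, 0.489% and 7.08% fell in LFD, LFCR, MCR and ICR. In Obese 2 of 6 plasminogen genes, 1 of 8 sheddases, 2 of 13 other proteases, 1 of 7 proteoglycans and 2 of 10 microfibril genes rose. In LFCR 2, 4, 3, 2 and 3 of the 5 lists' genes fell, in ICR 1, 2, 2, 1 and 2, and in LFD 0, 0, 0, 1 and 0. In LFCR 1 of the 13 other proteases rose (background 10.8%). In MCR, with 1 library, the medians of the 5 lists were -1.05, -0.27, -0.81, -1.13 and -0.94. Serpine2 was then 1.54 higher in Obese (adjusted p = 0.021), Hspg2 1.15 (adjusted p = 0.0092), Ctsl 0.86 (adjusted p = 0.01), Pcolce 0.68 (adjusted p = 0.072) and Fbln5 1.56 (adjusted p = 0.0036). In LFCR Plaur again fell (adjusted p = 0.0054), and the differences were -1.36 for Adam8 (adjusted p = 0.0054), -0.89 for Bgn (adjusted p = 0.017) and -1.61 for Fbln5 (adjusted p = 0.0023). In LFD none of these 4 passed (adjusted p 0.056 to 0.077), and in MCR Fbln5 was the only one of the 4 that did (-2.29, adjusted p = 0.025). In ICR Plaur, Adam8 and Fbln5 passed (-1.07, -1.47 and -1.25, adjusted p of 0.0034, 0.0034 and 0.0065), and Bgn was at -0.56 (adjusted p = 0.081).

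The marker lists were counted in the same fit. Of the 6 general macrophage genes 0 rose in Obese and 4 fell in LFCR, with 0 called in LFD, MCR or ICR, and of the 7 lipid-associated macrophage genes 4 rose in Obese and 3, 4, 0 and 4 fell in LFD, LFCR, MCR and ICR. Of the 9 luminal genes 1 fell in Obese (background 0.577%), 3 rose in LFD (background 0.354%), and 0 differed between the restricted diets and LFD. Their median difference in MCR, with 1 library, was 0.76. Of the 5 adipocyte genes 1 rose in Obese (background 2.67%) and 4 were higher after the 4 diets than in Control (background 3.71%). Of the 5 endothelial genes 2 rose in Obese, 1, 1 and 2 fell in LFD, LFCR and ICR, and 1 rose in LFCR. Their median difference in MCR, with 1 library, was -0.49. Of the 7 fibroblast genes 1 rose in Obese and 1 fell in LFCR. Of the 5 neutrophil genes 3 fell in LFCR and 3 in ICR. The 9 B cell genes also differed in this fit. Against Obese, 6 fell in LFCR (median -1.09, background 7.96%) and 7 in ICR (median -1.16, background 7.08%), with 0 called in LFD. Between Obese and Control 0 were called. B cell genes were thus lower in LFCR and ICR than in Obese in this fit. Over all libraries the mean of that list was higher in ICR (11.2 on the log2 scale) than in Obese (9.89). Of the 5 T cell genes 0 were called in LFCR or ICR against Obese without the 8 libraries (medians -0.60 and -0.55).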

How the data were processed

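RNA of 29 mammary fat pads was sequenced as stranded total RNA, in Illumina paired reads of 76 bases, per the labels' protocols. TopHat2 2.0.7, HTSeq 0.5.3p9, DESeq2 and mm10 are named in the submitters' processing notes. The authors deposited 1 table of log2 values for 30818 genes, and the values themselves match a variance-stabilizing transform, a step no label names. It compresses low values, so fold changes of low genes are understated. Undoing it gave normalized counts, all whole multiples of 1 step per library within 0.01, hence recovered reads (16403903 to 49026986, median 37270234). Low depth (18212783 or fewer) was confined to the 5 libraries of lane 4 of the 6 lanes in the column names, 1 per group at most.

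The deposited log2 values were fitted with limma 3.58.1 (R 4.3.3, statmod 1.5.0): 1 mean per group, empirical Bayes with trend and robust settings, and Benjamini-Hochberg adjustment over the 19224 genes with a value of 5 or more in 4 or more libraries. A call is an adjusted p under 0.05 and errors of differences are SE. Exon lengths and positions came from GENCODE vM21 and promoters from RefSeq, both on GRCm38. The fit was tested on simulated data. Libraries of a group correlated at 0.962 to 0.995 and none repeated another. The genes and lists were chosen with earlier results of these data known. Described by name are the 6 called genes of smallest adjusted p per comparison, Timp1, 2, 3 and 4, Mmp2, 3, 9, 11, 13 and 14, Adamts1, 4 and 5, and up to 2 genes of each other list. Alternatives were voom on recovered reads, other minimums, quantile normalization, a lane term, B cell, luminal and muscle means as covariates, leaving out each library or the 8 with few lymph node transcripts and, chosen after seeing the data, macrophage and fibroblast means, leaving out libraries rich in muscle RNA, and the other lists without the 8. A second Mmp23 promoter and the genes overlapping those named were also examined after their values were seen. Some items are not reported here.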

Additional observations from a re-analysis of the deposited data

Results flagged for a closer look

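Within groups of 4 or 5 libraries, 12 of 192 groups over 32 genes held a library far from the others, by the gap to its nearest neighbour against the whole range. Chance flags about 1 in 20 groups. Values are on the deposited log2 scale.

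In 6 of the 12 it was MCR 2, the one MCR library with abundant lymph node transcripts. This library was the lowest of its group for Timp3 (13.5), Mmp15 (10.7), Adamtsl4 (8.98), Adamtsl5 (7.65) and Adamts7 (7.39), and the highest for Adamts17 (6.24). Among the inhibitors, Timp1 was highest in MCR 4 (6.55) and in ICR 5 (6.70), and LFCR 1 was highest for Timp3 (15.8) and Timp4 (13.5). ICR 5 was also highest for Adamts17 (6.56), and ICR 3 for Mmp13 (6.00).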

How the results depend on the processing

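No paired analysis was possible because the titles number each library singly and no replicate number is shared by groups. Lanes, which hold at most 1 library per group, were fitted as a term instead. Of the 61 calls of a gene in a comparison, 56 remained with voom on recovered reads, 61 with a minimum of 10 normalized counts, 47 with no minimum, 53 with quantile normalization, 41 with a lane term and 21 without the 8 libraries with few lymph node transcripts. With the B cell, luminal, muscle, macrophage or fibroblast mean as covariate 42, 47, 52, 32 and 49 remained. Without the 6 libraries with much skeletal muscle RNA 27 remained. With only the groups of the comparison, 27 of 45 did. In every alternative run, 8 remained: Adamts5, Mmp23 and Timp3 over the 6 groups, Mmp23 in LFCR and ICR, Adamts5 in ICR, and Adamts13 and Mmp28 between the diets and Control. Adamts10 in MCR reversed without the 8 libraries (0.0102). The cause was not tested unless stated.

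Counts of called genes that moved by over 1.5 times were these. The share called over all genes moved too, for example without the 8 libraries from 33.8% to 5.53% for the 4 diets against Control, from 12.5% to 0.52% for MCR and from 12.9% to 3.25% for Obese, and with a lane term from 33.6% to 28.4% over the 6 groups. Over the 6 groups 16 became 8 with a lane term and 6 without the 6 libraries with much skeletal muscle RNA. For Obese against Control 8 became 5 with a lane term, 2 without the 8 libraries, 4 with the B cell mean, 0 with the macrophage mean and 3 with the fibroblast mean as covariate, and 3 with only those groups. For LFD against Obese 2 became 1 with no minimum, without the 8, with the muscle mean or with only those groups, 6 with the B cell mean, 4 with the fibroblast mean, and 0 with the luminal mean or without the muscle libraries. For LFCR 12 became 6 without the 8, 6 with the macrophage mean and 7 without the muscle libraries. For MCR 5 became 3 with quantile normalization or a lane term, 0 without the 8, 9 with the B cell mean, 2 with the luminal mean or only those groups, and 1 with the macrophage mean or without the muscle libraries. For ICR 5 became 3 with no minimum, a lane term or without the muscle libraries, 9 with the B cell mean and 2 with only those groups. For the 4 diets against Control 12 became 3 without the 8 and 4 with the B cell mean or without the muscle libraries. For restricted diets against LFD 1 became 6 with voom, 5 with the B cell mean, 2 with the fibroblast mean, and 0 with no minimum, quantile normalization, a lane term, the luminal or muscle mean, only those groups, or without either set of libraries. Among the 3 restricted diets 0 became 1 with the B cell mean.

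Leaving out single libraries gave 9 to 27 called genes over the 6 groups, 2 to 14 for Obese against Control, 1 to 4 for LFD, 8 to 12 for LFCR, 1 to 7 for MCR, 3 to 6 for ICR, 2 to 18 for the 4 diets against Control, 0 to 2 for restricted diets against LFD and 0 to 0 among restricted diets. Counts moved by over 1.5 times over the 6 groups without Control 1 (10), Control 2 (10), MCR 3 (10), MCR 4 (9) and MCR 2 (27). For Obese they did so without Control 1 (4), Control 5, Obese 1 or Obese 5 (2 each) and Obese 4 (14), and for LFD without Obese 1, 2 or 5 or LFD 4 or 5 (1 each) and LFD 2 (4). For MCR they did so without Obese 2, Obese 3 or MCR 3 (2 each), MCR 1 (1) and MCR 4 (3), and for ICR without Obese 1, Obese 2, ICR 1 or ICR 3 (3 each). Against Control the 4 diets gave 2 calls without Control 1 or 2 and 6 without Control 5. The 1 call against LFD was lost without LFD 1, 3 or 4, LFCR 2 or 3, MCR 1 or ICR 2, and became 2 without MCR 2. The depth limits Mmp8, Adamts13 and Adamts16, which had 0 to 99.2 normalized counts per library.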
